A study of Homo sapiens with 10 samples.

Results

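The proline and threonine tRNA rows are the entries for tRNA-Pro and tRNA-Thr, of every anticodon and gene copy, in the tRNA tables of 10 iCLIP libraries. They were chosen by name, without rows that carry an nm or nmt prefix, and numbered 47 of the 631 tRNA rows in each table, 22 for proline and 25 for threonine. In iCLIP, ultraviolet light ties a protein to the RNA it touches inside the cell, and the RNA pulled down with that protein is sequenced. PUS7 is a pseudouridine synthase, which turns uridine into its isomer pseudouridine in tRNA and mRNA.

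The 4 groups came from 2 human cell lines, and all cells lacked the endogenous PUS7 gene product by knockout. HEK 293T, an embryonic kidney line grown at passage 20 to 25, gave 3 libraries of the knockout with FLAG-tagged PUS7 added back and 3 of the plain knockout. The embryonic stem cell line H9, grown at passage 40 to 45, gave 2 libraries of each genotype. Both genotypes went through the same irradiation and the same anti-FLAG pull-down, so the knockout libraries are the mock background. The labels give 2 plates of 15 cm per replicate. They do not say how FLAG-PUS7 was expressed, whether a knockout was 1 clone, or whether replicates came from separate cultures. The tables hold tRNA rows only, so neither the cell lines nor the loss of PUS7 could be checked against other genes.

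A tRNA carries its amino acid to the ribosome and reads a codon with the anticodon loop. Proline is inserted slowly into a growing chain, and its tRNAs read codons of the CCN type, with the anticodons AGG (whose A is converted to inosine), CGG and TGG. Threonine tRNAs read ACN codons with AGT (also read through inosine), CGT and TGT, and bear a bulky modified adenosine beside the anticodon. Both sets are encoded by several gene copies, and copies that share the first number after the anticodon encode the same mature tRNA.

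The deposited values are level numbers and not read counts, so each row could be read only for the presence or absence of reads. The depth of every library is unknown. A row with reads is called detected. Of all 631 rows, 458 to 479 were detected in FLAG-PUS7 libraries, 133 to 232 in 293T knockout libraries, and 0 and 232 in the H9 knockout libraries. The table of H9 knockout library 1 held only 6 distinct values and served as the reference for the state without reads, so its 0 rows follow from that reading. None of the differences given below for a proline or threonine family changes when that library is left out, because H9 knockout library 2 also held 0 of these rows.

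Of the 47 rows, 41 matched an entry of the RefSeq gene table for GRCh38.p14. These were 20 proline and 20 threonine tRNA genes, which are all the genes of both kinds in that table, and 1 proline pseudogene, TRP-GGG1-1. The 40 genes span 72 to 74 bases each.

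Nearly all of these genes were detected with FLAG-PUS7 in both lines, and few were detected in the mock. Each of the 3 libraries of 293T with FLAG-PUS7 held 20 of the 22 proline rows, and so did both of H9. The 293T knockout libraries detected 2, 1 and 0 proline rows, and the H9 knockout libraries 0 and 0. The threonine rows gave 21, 21 and 22 of 25 in the 293T FLAG-PUS7 libraries and 21 and 20 in those of H9. The knockout libraries held 3, 2 and 2 threonine rows in 293T and 0 and 0 in H9. For neither amino acid did a knockout library come near a FLAG-PUS7 library.

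As a share of rows, proline detection in 293T was 90.9% ± 0 (SD, n = 3) when FLAG-PUS7 was present, against 4.55% ± 4.55 (SD, n = 3) when it was absent. In H9 it was 90.9% ± 0 (SD, n = 2), against 0% in each single knockout library. The 0% of H9 knockout library 1 is fixed, since that library is the reference. Threonine detection was 85.3% ± 2.31 (SD, n = 3) against 9.33% ± 2.31 (SD, n = 3) in 293T. In H9 it was 82.0% ± 2.83 (SD, n = 2), again against 0% in each single knockout library. The 543 remaining rows, again leaving out the nm and nmt prefixes, reached 78.3% ± 2.13 (SD, n = 3) against 30.2% ± 10.1 (SD, n = 3) in 293T. In H9 they reached 79.4% ± 0.26 (SD, n = 2), against 0% and 42.7% for the single knockout libraries. The distance between proline or threonine rows and the other rows thus lay mainly in the knockout libraries. It was not tested.

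**Figure D1:**
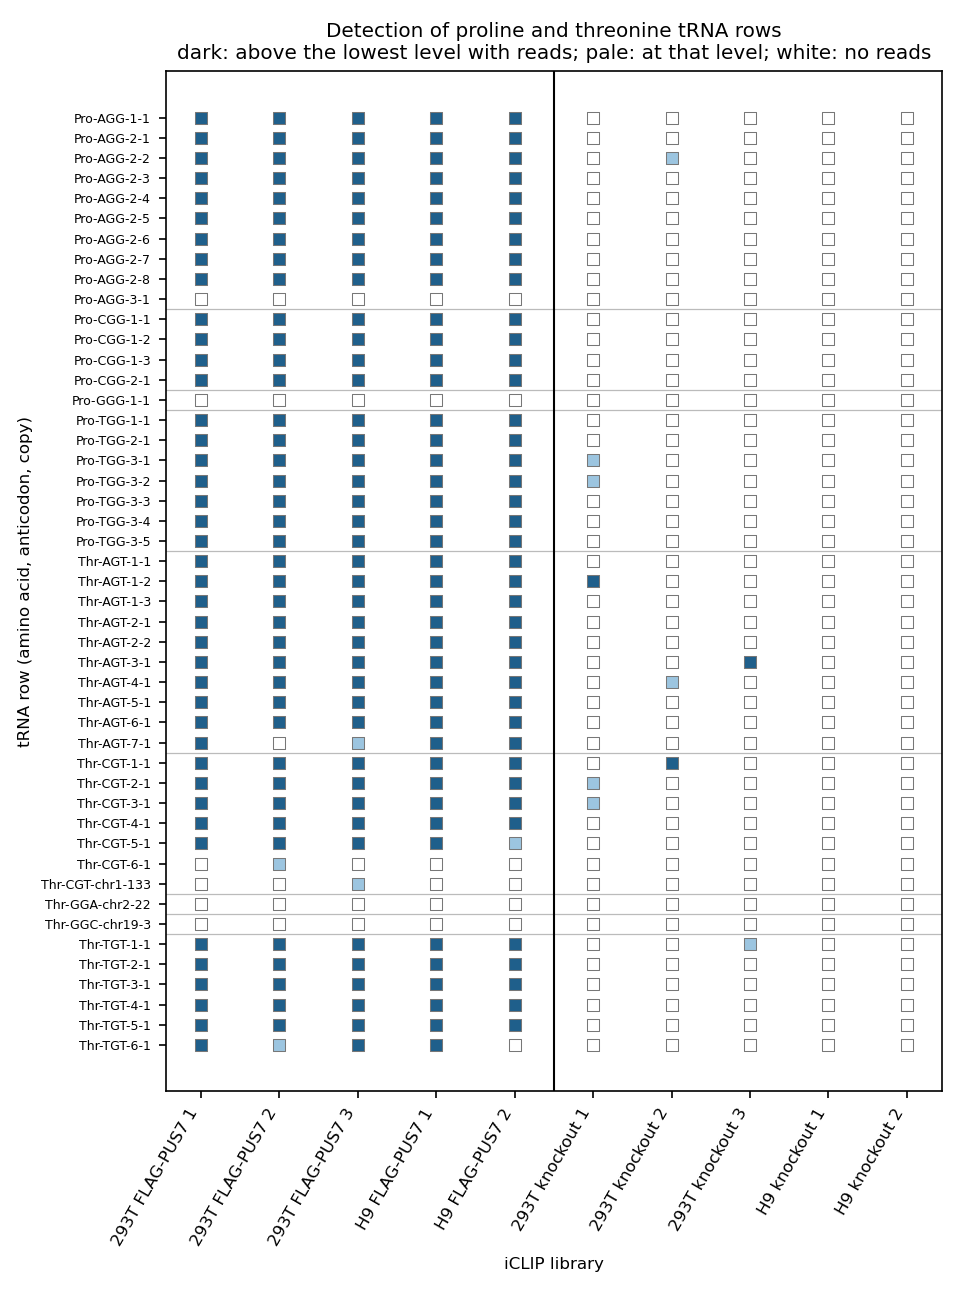
Detection of each of the 47 rows (vertical axis, grouped by anticodon) in each of the 10 libraries (horizontal axis). Dark squares are rows above the lowest level with reads, pale squares rows at that lowest level, and white squares rows without reads; 10 squares are filled on the knockout side, all in 293T, and 205 on the FLAG-PUS7 side.

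The comparison by anticodon asked which families of tRNA-Pro and tRNA-Thr came down with FLAG-PUS7 and not with the mock. All 6 families with any detected row were detected more often with FLAG-PUS7. The test was an exact two-sided permutation test over the 120 assignments of libraries within cell lines, adjusted by Benjamini-Hochberg over the 57 families of the whole table. Each of the 6 reached the smallest p the design allows (exact permutation p = 0.0167, adjusted p = 0.0221). Over all families 45 of 57, or 78.9%, passed, so that passing was common in these tables. Without either of the H9 libraries with FLAG-PUS7 the 45 became 23, with the 6 among them. In each of the 6 families all 5 FLAG-PUS7 libraries lay above every knockout library of their line, as they did in 43 of the 57 families (75.4%). Neither line could reach 0.05 alone, since the smallest exact permutation p is 0.1 in 293T and 0.333 in H9.

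Pro-CGG, the family that reads the CCG codon, had the same value in every library of a genotype. Each of the 5 FLAG-PUS7 libraries detected 4 of its 4 rows and each of the 5 knockout libraries 0, so the groups differed by 100 percentage points. The lowest-numbered copy, Pro-CGG-1-1, lies on chromosome 1 at 167714725 to 167714796.

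Pro-AGG, the inosine-decoding proline family, had 10 rows. Each of the 5 FLAG-PUS7 libraries detected 90% of them, and 293T knockout library 2 detected 10%, while the other 4 knockout libraries detected 0%. The mean difference was 88.3 points. The missing row with FLAG-PUS7 was Pro-AGG-3-1, which had no match in RefSeq, so all 9 RefSeq genes of the family were detected every time. The single knockout detection was Pro-AGG-2-2 on chromosome 6 at 26555270 to 26555341. Pro-AGG-1-1, on chromosome 16 at 3191989 to 3192060, stands for the copies found with FLAG-PUS7 every time and never without it.

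Pro-TGG, which reads CCA, had 7 rows, all detected in each of the 5 FLAG-PUS7 libraries. In the knockout, 293T library 1 detected 28.6% and the other 4 libraries 0%, which gave a difference of 95.2 points. That library's 2 rows were Pro-TGG-3-1 on chromosome 5 at 181188854 to 181188925 and Pro-TGG-3-2 on chromosome 14 at 20684016 to 20684087. They are copies of the same mature tRNA, and the other copies of it, Pro-TGG-3-3, Pro-TGG-3-4 and Pro-TGG-3-5, were in no knockout library.

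Thr-AGT, the inosine-decoding threonine family, alone among the 6 families had a detected row in every 293T knockout library. The 293T FLAG-PUS7 libraries detected 100%, 90% and 100% of its 10 rows and both H9 libraries 100%. The 293T knockout libraries detected 10% each and the H9 knockout libraries 0%, for a difference of 93.3 points. The row differed from library to library: Thr-AGT-1-2 (chromosome 17, 8226235 to 8226308) in knockout library 1, Thr-AGT-4-1 (chromosome 6, 27726694 to 27726767) in library 2 and Thr-AGT-3-1 (chromosome 6, 28726018 to 28726091) in library 3. The row missing from 293T FLAG-PUS7 library 2 was Thr-AGT-7-1, which had no RefSeq match and was detected in the other 4 FLAG-PUS7 libraries.

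Thr-CGT, which reads ACG, had the smallest difference of the 6 families, 69.0 points over 7 rows. The 293T FLAG-PUS7 libraries detected 71.4%, 85.7% and 85.7% of its rows and both H9 libraries 71.4%. The 293T knockout libraries detected 28.6%, 14.3% and 0%, and the H9 knockout libraries 0%. The groups did not overlap, as in most families of the table. The rows in the knockout were Thr-CGT-2-1 (chromosome 16, 14285893 to 14285964) and Thr-CGT-3-1 (chromosome 6, 28648207 to 28648280) in library 1, and Thr-CGT-1-1 (chromosome 6, 28488993 to 28489066) in library 2. On the FLAG-PUS7 side the family lost ground through Thr-CGT-6-1, seen only in 293T library 2, and Thr-CGT-chr1-133, seen only in 293T library 3. Neither had a RefSeq match, and both stood at the lowest level with reads.

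Thr-TGT, which reads ACA, had 6 rows. All were detected in the 3 FLAG-PUS7 libraries of 293T and in H9 library 1, and 83.3% in H9 library 2. The 293T knockout libraries detected 0%, 0% and 16.7%, and the H9 knockout libraries 0%, a difference of 93.1 points. The knockout row was Thr-TGT-1-1 on chromosome 6 at 28474552 to 28474625, in library 3. Thr-TGT-6-1, the row missing from H9 FLAG-PUS7 library 2, was alone among the 40 RefSeq genes in not being in all 5 FLAG-PUS7 libraries, and in 293T library 2 it stood at the lowest level with reads.

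**Figure D2:**
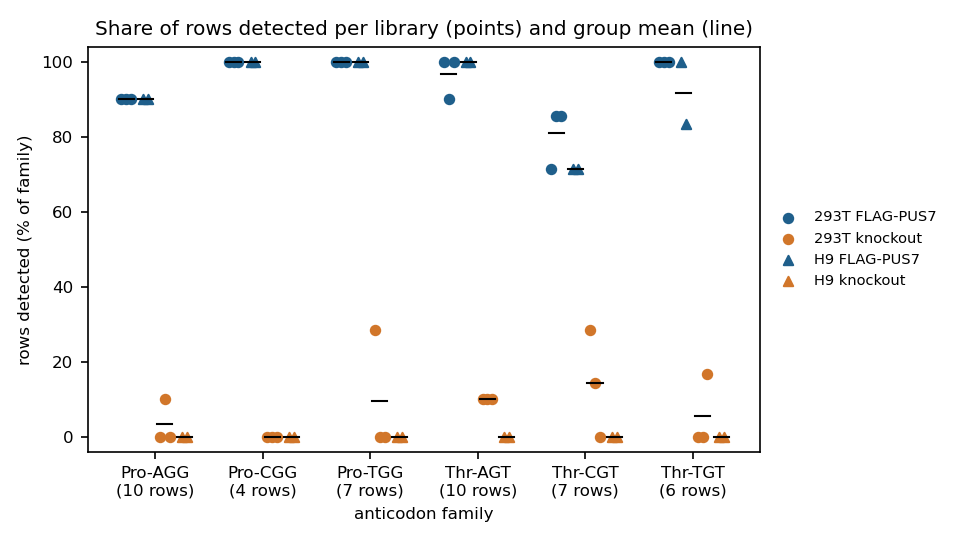
Share of the rows of each anticodon family detected (vertical axis, percent of the family's rows) in each library (points) with the group mean (black line). FLAG-PUS7 libraries lie at 71.4% or above and knockout libraries at 28.6% or below in all 6 families.

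The 3 remaining families, Pro-GGG, Thr-GGA and Thr-GGC, consist of 1 row each and were detected in no library. Together with Pro-AGG-3-1 they are the 4 rows never seen. Their rows are the pseudogene Pro-GGG-1-1 and the unmatched entries Thr-GGA-chr2-22 and Thr-GGC-chr19-3. Since the depth is unknown, no upper limit can be given.

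The median difference over the 6 families was 93.2 points, beside 52.5 points over all 57. By size of the difference, Pro-CGG ranked 1 of 57, tied with 3 other families, Pro-TGG 5, Thr-AGT 6, tied with Ile-TAT, Thr-TGT 8, Pro-AGG 10 and Thr-CGT 15. The differences within 293T were 86.7 points for Pro-AGG, 100 for Pro-CGG, 90.5 for Pro-TGG, 86.7 for Thr-AGT, 66.7 for Thr-CGT and 94.4 for Thr-TGT. In H9 they were 90, 100, 100, 100, 71.4 and 91.7 points in the same order. The largest gap between lines was that of Thr-AGT, 13.3 points more in H9 (exact permutation p = 0.06, adjusted p = 1). No family of the table passed the test of a difference between lines (0 of 57, 0.0%, by the exact permutation test, and 0 at an unadjusted p under 0.05), which does not show that the lines were alike.

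Row by row, 43 of the 47 rows were detected in at least 1 library. Of these, 29 had reads with FLAG-PUS7 every time and never without it, beside 128 of 513, or 25%, over all tested rows of the tables. Proline contributed 17 of these 29 and threonine 12. Taken over the rows found in all FLAG-PUS7 libraries, 85% of 20 proline rows and 63.2% of 19 threonine rows were absent from the knockout, beside 25.5% of 385 other rows. By anticodon the counts were 8 of 9 for Pro-AGG, 4 of 4 for Pro-CGG, 5 of 7 for Pro-TGG, 6 of 9 for Thr-AGT, 2 of 5 for Thr-CGT and 4 of 5 for Thr-TGT. Single rows could not pass the adjusted threshold: 0 of 513 did (0.0%, exact permutation test, lowest adjusted p = 0.0668). The rows with an unadjusted exact permutation p under 0.05 were those same 128, among them the 29. These p-values restate that count and add nothing to it.

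Each of the 10 proline and threonine rows found in a knockout library was found in exactly 1 of the 5. Of the 385 other rows in all FLAG-PUS7 libraries, 287 were in some knockout library. Among these, 74 were likewise in exactly 1, and 71 were in all 4 knockout libraries that held any tRNA row. Of 21 isotypes with at least 5 rows in all FLAG-PUS7 libraries, 4 had no row in more than 1 knockout library: Cys, Pro, Thr and Trp. In H9 knockout library 2, which detected 232 other rows, 5 of these 21 isotypes had no detected row: Cys, Pro, Thr, Trp and Tyr. With the same 21 ordered by the share of rows absent from every knockout, Cys (96%) was highest. It was followed by Pro (85%), Trp (66.7%, 4 of 6 rows), Thr (63.2%) and Ala (57.7%). These shares rest on 6 to 26 rows an isotype and were not tested against each other.

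Of the 10 knockout detections, all in 293T, 7 stood at the lowest level with reads, 3 of 3 of proline and 4 of 7 of threonine. The 3 above it were Thr-AGT-1-2, Thr-AGT-3-1 and Thr-CGT-1-1. In the same 3 libraries 187 of 492 detections (38.0%) of the other rows stood at that level. By library the counts were 4 of 5 against 20.7% of the other rows in library 1, 2 of 3 against 52.6% in library 2, and 1 of 2 against 53.1% in library 3. The order of the levels may not follow the amount of reads, and with so few detections no difference is read from these shares. In H9 knockout library 2, which held no proline or threonine row, 6.90% of the other rows' detections stood there. In the FLAG-PUS7 libraries only 5 of 205 detections of proline and threonine rows stood there. These 5 were all of threonine: Thr-AGT-7-1 in 293T library 3, Thr-CGT-5-1 in H9 library 2, Thr-CGT-6-1 and Thr-TGT-6-1 in 293T library 2, and Thr-CGT-chr1-133 in 293T library 3.

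The level numbers also sort the rows into 4 main classes, called text classes here, from 1 to 4. Rows of a higher class were detected more often in the knockout, and also with FLAG-PUS7 until all were detected. In 293T FLAG-PUS7 library 1, 47.5% of 200 other rows of class 1 and 98.0% of 101 of class 2 were detected. In classes 3 and 4 the share was 100%. No source used here says what the class stands for. Proline rows fell into classes 1 (2 rows) and 2 (20 rows), and threonine rows into classes 1 (6 rows), 2 (8 rows) and 3 (11 rows). Over the 4 knockout libraries with any tRNA row, 0% to 10% of the class 2 proline rows and 0% to 12.5% of the class 2 threonine rows were detected, against 9.90% to 42.6% of 101 other rows of class 2. In class 3 the range was 0% to 18.2% for threonine and 36.8% to 76.8% for 155 other rows. Taken library by library, class 2 proline rows were detected at 10%, 5% and 0% in 293T and 0% in H9 knockout library 2. The other rows of class 2 were at 20.8%, 17.8%, 9.90% and 42.6% in the same order. Class 2 threonine rows were above the other rows only in 293T knockout library 3 (12.5% against 9.90%). In class 3, which held no proline row, the threonine range stayed below that of the other rows. These differences were not tested.

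Restricted to rows in all FLAG-PUS7 libraries, 17 of 20 proline rows (85%), 5 of 7 threonine rows (71.4%) and 43 of 98 other rows (43.9%) of class 2 were in no knockout library. In class 3 the counts were 6 of 11 for threonine (54.5%) and 12 of 155 for other rows (7.74%). None of the proline or threonine rows was in class 4, where the knockout libraries detected 66.3% to 96.5% of the other rows.

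**Figure D3:**
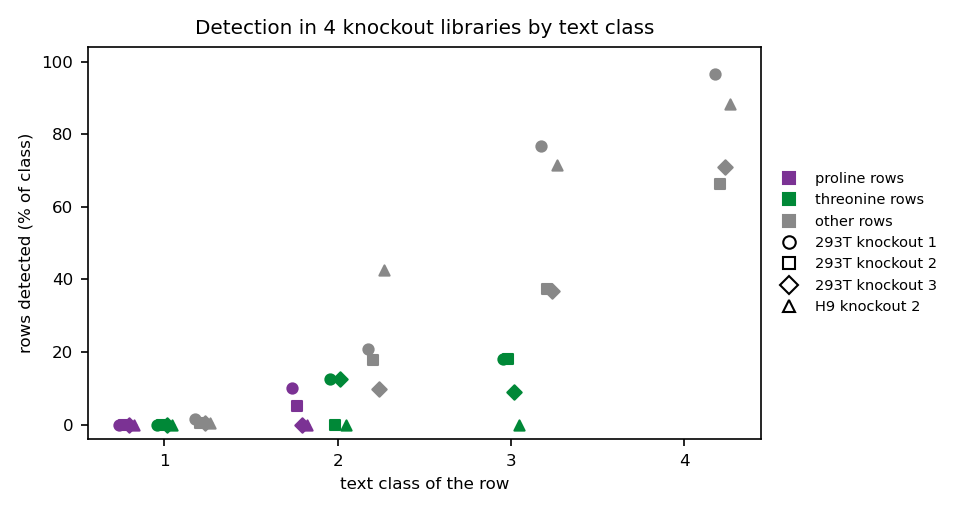
Share of rows detected (vertical axis, percent of the rows of a class) by text class (horizontal axis) in the 4 knockout libraries that held any tRNA row, for proline, threonine and other rows. In class 3 the threonine points end at 18.2% and the points of the other rows start at 36.8%.

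Copies with the same mature tRNA did not have the same values. The 8 copies of Pro-AGG-2 took 6 to 8 distinct levels in a FLAG-PUS7 library. The 3 copies of Pro-CGG-1, the 5 of Pro-TGG-3, the 3 of Thr-AGT-1 and the 2 of Thr-AGT-2 took as many levels as there are copies in each of the 5 libraries. Since equal levels mean equal deposited values, the tables gave most copies a value of their own. No source used here says how reads that match several copies were assigned. It is thus not known whether the reads behind a detection came from that copy or from its twin.

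The 40 genes lie in 16 groups when neighbours within 100000 bases are joined. The largest are on chromosome 16 at 3158922 to 3192060, with 7 proline genes, and on chromosome 14 at 20609336 to 20684087, with 4 proline and 3 threonine genes. No gene of the chromosome 16 group and 1 of the chromosome 14 group, Pro-TGG-3-2, was in a knockout library. Chromosome 6 holds 11 of the genes, 9 of them for threonine, and 6 of the 10 genes seen in a knockout library. The other 4 lie on chromosomes 5, 14, 16 and 17, 1 on each. No test was made of this spread.

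Peak lists of the 5 FLAG-PUS7 libraries gave a second view of the same genes on the genome, in bins of 200 bases. They are named as made without tRNA, a step the sources used here do not describe, and no knockout list was analysed here. A gene was counted where a peak shared at least 1 base with it. In 293T the lists touched 1 proline and 4 threonine genes in library 1, where 11.8% of all 423 RefSeq tRNA genes were touched. They touched 1 and 3 in library 2 (9.69% of all) and 0 and 0 in library 3 (4.26%). In H9 they touched 3 and 11 in library 1 (26.7%) and 1 and 5 in library 2 (13.0%). With 20 genes each, threonine genes were thus touched at 20%, 15%, 0%, 55% and 25%, and proline genes at 5%, 5%, 0%, 15% and 5%. The threonine share was above that of all tRNA genes in 4 lists and the proline share below it in all 5. The difference was not tested.

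In all, 14 of the 40 genes were touched by a peak of any list, 3 for proline and 11 for threonine. All 14 were touched in the first H9 list, the longest with 1605 peaks, 5 were touched in any 293T list, and 7 in 1 list only. All 14 had reads in the table of every FLAG-PUS7 library, and 4 of them in a knockout table. Those were Thr-AGT-3-1, Thr-CGT-1-1, Thr-CGT-2-1 and Thr-TGT-1-1.

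The 4 genes touched in 4 lists were Thr-CGT-4-1, Thr-AGT-2-1, Thr-CGT-2-1 and Pro-AGG-2-5. The signal is the authors' value per peak and is not scaled for depth, so it is read only within a list. Thr-CGT-4-1, on chromosome 17 at 31550074 to 31550145, had the highest signal among these genes in the first list of each line, but not in the second. It had 24 and 19 in 293T libraries 1 and 2. In H9 it had 48, which was rank 40 of 1605 peaks, and 9. Thr-AGT-2-1, on chromosome 6 at 26532917 to 26532990, had 20 and 19 in 293T, then 19 and 15 in H9. Pro-AGG-2-5, on chromosome 14 at 20609336 to 20609407, had 15 and 23 in 293T, then 11 and 8 in H9. Thr-CGT-2-1 had 11, 13, 9.5 and 6 in the same lists. In the first 293T list these 4 signals lay on both sides of the list's median of 20, and in the second all lay under the median of 28. In the first H9 list all lay above the median of 3, and in the second on both sides of the median of 11. The third 293T list had no peak at any of these genes, and its lowest peak signal was 22.

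The remaining 10 genes had 1 or 2 peaks each. Thr-AGT-1-1 had a signal of 10 (293T, library 1) and 6 (H9, library 1), Thr-AGT-2-2 had 4 and 6 in the H9 lists, and Thr-CGT-1-1 had 5 and 14 there. In the first H9 list alone, the signals ran from 3 for Thr-AGT-1-3 to 7 for Thr-AGT-5-1, with Pro-AGG-2-3, Pro-CGG-2-1, Thr-AGT-3-1, Thr-CGT-5-1 and Thr-TGT-1-1 between them. The overlap was partial for several genes: 65 bases for Pro-AGG-2-5, 49 for Thr-TGT-1-1, 33 for Thr-AGT-1-1, 29 for Thr-CGT-5-1, 13 for Pro-CGG-2-1 and 8 for Thr-CGT-1-1. Of the 29 pairs of a gene and a list, 18 had the whole gene inside the peak.

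**Figure D4:**
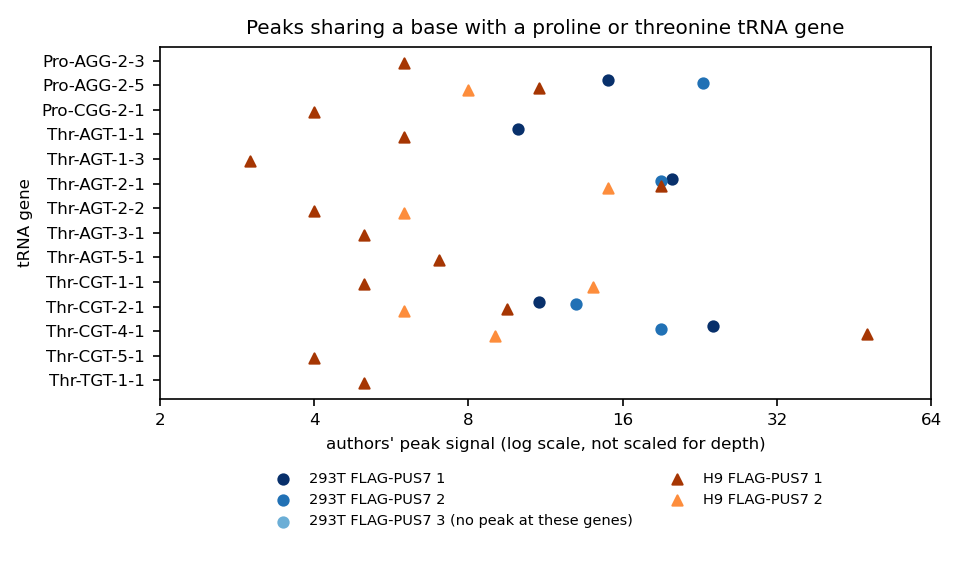
Authors' peak signal (horizontal axis, log scale, not scaled for depth) of every peak that shares a base with a proline or threonine tRNA gene (vertical axis), by FLAG-PUS7 list. Thr-CGT-4-1 reaches 48 in the first H9 list, and the third 293T list has no point.

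Some peaks lay beside a gene without touching it, within 200 bases. Pro-AGG-2-6, on chromosome 14 at 20613401 to 20613472, begins 1 base after the end of a minus-strand bin that was a peak in 4 lists, with signals of 14 and 23 in 293T, then 16 and 6 in H9. Thr-AGT-1-2 begins 35 bases after a bin called in 3 lists (12, 13 and 7), which also touches the protein-coding gene CTC1. Thr-TGT-6-1 begins 87 bases after a bin called in the first and second 293T lists (10 and 16), which also touches LINC01962. A bin with a signal of 17 in the second 293T list starts 5 bases after Pro-CGG-1-1. These 4 genes had no touching peak in any list, whereas Thr-AGT-1-1 and Thr-AGT-5-1 had a peak beside them and a touching one. The strand of the tRNA genes was not in the table used, so the peaks could not be placed on the sense or antisense side.

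**Figure D5:**
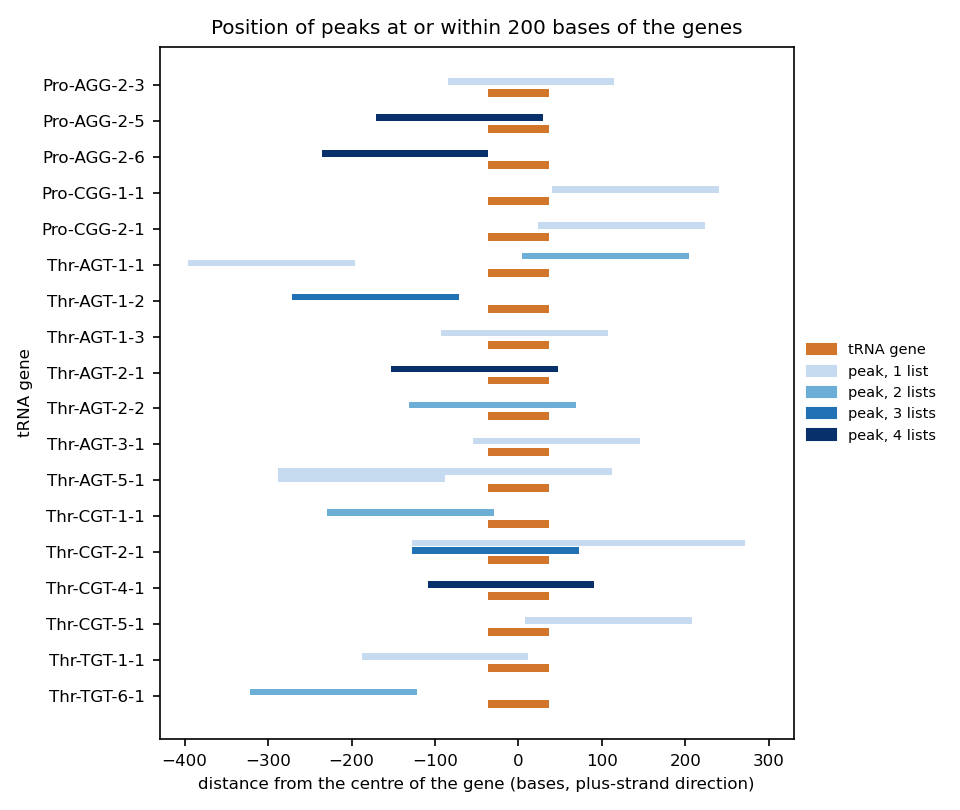
Position of peaks (blue bars, darker where the same interval was called in more lists) relative to the centre of each tRNA gene (orange bars), in bases along the plus strand. The bars at Thr-CGT-4-1 and Thr-AGT-2-1 cover the whole gene in 4 lists, whereas the one at Pro-AGG-2-6 ends beside it.

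Genes for tRNA charging and modification, and PUS7 itself, were looked for in the same peak lists. There were 15 of them: the prolyl- and threonyl-tRNA synthetases EPRS1, PARS2, TARS1, TARS2 and TARS3, the scaffold proteins AIMP1 and AIMP2, the deaminases ADAT2 and ADAT3, which make the inosine of the anticodon, the alanine tRNA deaminase ADAT1, the modification enzymes OSGEP, YRDC, TRMT6 and TRMT61A, and PUS7. None of the 15 shared a base with a peak in any of the 5 lists (0 of 15 in each). Of 20056 protein-coding genes, the shares with a peak were 0.12%, 0.0548% and 0.00499% in 293T and 4.31% and 0.239% in H9, so that 0 of 15 is near the background.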

How the data were processed

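The 10 iCLIP libraries were grouped by cell line and genotype from the labels. Per the labels' protocols, cells were irradiated at 254 nm with 200 mJ/cm2, lysed, immunoprecipitated for 2 h at 4 °C and sequenced for 50 cycles. The submitters' processing notes name Bowtie, SAMtools, bedtools and hg38, with no roles or versions, and no source used here names the peak caller.

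The authors deposited tRNA tables whose values are level numbers, in no unit. Every table runs from 1 to its maximum without a gap, and 0 of 381 levels shared by rows of the 9 other libraries mixed text classes, as set by H9 knockout library 1. Levels in the lowest run were taken to mean no reads. The next run up is called the lowest level with reads. A new run starts only where the text class fails to rise, so a run can hold several values. Whether the order of the levels follows the amount of reads is not known. The authors' peak lists were deposited with a signal and a p-value per peak, used as given, with no statement of the test behind the p-value. Rows with numbered copies were matched by symbol to the RefSeq table of GRCh38.p14, and coordinates are 1-based.

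Families were compared by exact permutation within line, with the lines weighted equally (Python 3.11.15, numpy 2.4.6, pandas 2.3.3), and the calculation was tested on simulated data. Since separate cultures are not stated, p-values cover just the spread among these libraries, which may be technical. The members and lists were chosen with earlier results of these data known. Named rows are those in a knockout library, in some but not all FLAG-PUS7 libraries, or with a peak, plus the lowest-numbered other copy of a family; the rows never detected were named after their values were seen. Sequences of these tRNAs were not analysed here.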

Additional observations from a re-analysis of the deposited data

How the results depend on the processing

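The alternatives left out each library in turn, weighted libraries equally, read the next level run as no reads, dropped chr-named rows or unmatched rows, required the whole gene inside the peak, or kept peaks with the authors' p-value under 0.01. No direction was reversed. Across libraries left out, 23 to 49 families passed, always with the 6 of proline and threonine, and 17 to 19 proline and 12 to 15 threonine rows were in all FLAG-PUS7 and no knockout libraries. With a replicate block, 0 families passed, and 0 of the 6. Its 32 assignments give no exact permutation p below 0.0625, so it could not pass, and differences were the same. Same-numbered libraries correlated at -0.0245 to 0.0369. Both H9 pairs gave the same value, 0.0341, and do not count as separate values. These values cannot show whether libraries with the same number were handled together. With RefSeq tRNA genes only, the share difference was 97.5 points for proline (88.6 over all rows) and 92.9 for threonine (79.0), since rows never or seldom detected drop out. With the whole gene inside the peak, 0, 0, 1 and 0 proline genes were left in the first and second 293T and the H9 lists, and 7 threonine genes in the first H9 list. Unknown depth and 2 or 3 libraries a group limit all comparisons: detection has no scale of amount, and a row without reads may be below what a library could show.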
